A study of Mus musculus with 6 samples.

Results

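The Hox genes of the mouse were measured in whole embryos at embryonic day 8.5, as 48 probe sets that stand for 33 genes. Each probe set is made of several short probes against 1 transcript and yields 1 signal. Members were the probe sets whose platform annotation gives exactly 1 gene symbol made of Hox, a cluster letter (a, b, c or d) and a paralogue number, out of 45037 probe sets that were not controls. Where a gene had several probe sets, the one with the highest mean over all 6 arrays stood for the gene.

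The embryos were 3 wild types and 3 littermates heterozygous for Tcof1 (Tcof1+/-), with no other allele or treatment named in the labels; no source used here gives strain or somite number. Tcof1 encodes treacle, a nucleolar protein of ribosomal RNA synthesis, and people who lack a working copy have Treacher Collins syndrome, with malformed facial bones. There was 1 Affymetrix expression array per embryo, read out as linear signals in arbitrary units. The labels call the embryos biological replicates, so p-values measure the spread between embryos.

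Hox genes encode homeodomain transcription factors that give cells of the hindbrain, neural tube, somites and limbs their position along the head-to-tail axis. They lie in the clusters Hoxa, Hoxb, Hoxc and Hoxd, and genes with the same number in different clusters are paralogues, descended from 1 ancestral gene. Within a cluster the genes are switched on in order, from low numbers at the 3 prime end to high numbers at the 5 prime end, and low numbers act further towards the head. The expression of the low numbers reaches the hindbrain and the neural crest that leaves it for the pharyngeal arches, whereas cranial crest of the first arch is free of Hox expression. Retinoic acid, the Cdx factors and Wnt signals act on the clusters in the early embryo, and Hox proteins bind DNA together with partners of the Pbx and Meis families.

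The arrays had medians between 21 and 25.6, a trimmed mean of 150.0 on every array and pairwise correlations between 0.952 and 0.959 over all probe sets on the log2 scale. Tcof1 itself, on its brightest probe set, gave 382, 393 and 387 in wild types 1, 2 and 3 and 222, 179 and 231 in heterozygotes 1, 2 and 3 (log2 difference -0.88, SE 0.12, limma adjusted p = 0.0352), and the genotypes did not overlap. Markers of extraembryonic tissue and blood differed widely between embryos of 1 genotype. The 7 markers of yolk sac endoderm summed to 1907 to 9858 in wild types and 853 to 15640.0 in heterozygotes, with wild type 1 and heterozygote 2 lowest. The 5 markers of primitive blood summed to 5742 to 13508 in wild types and 280.3 to 11143 in heterozygotes, with heterozygote 1 lowest. Of the 3 matched markers of trophoblast and decidua, Tpbpa lay below the background ceiling on all 6 arrays, Prl8a2 above it on 3 (wild type 3 and heterozygotes 1 and 3) and Dcn above it on all 6. The part of these tissues in the Hox signals was not tested. Since whole embryos were measured, fewer cells that express a gene and less RNA per cell cannot be told apart, and the number of arrays limits the precision of every comparison.

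Signals above background were found for Hox genes of every cluster. As a background ceiling, the highest signal among 27 control probe sets for bacterial genes was used, which was 8.55 to 13.5 per array. These controls were taken to have received no spike-in. The median over all probe sets, 21 to 25.6 per array, lay above this ceiling, so most probe sets of each array exceeded it. The share that did so on all 6 arrays was not counted, so the Hox counts that follow cannot be compared with the array as a whole. Of the 33 Hox genes, 25 exceeded the ceiling on all 6 arrays. These were 10 of 10 genes with paralogue numbers 1 to 4 (called anterior here), 7 of 9 with numbers 5 to 8 (central) and 8 of 14 with numbers 9 to 13 (posterior). By cluster they were 7 of 9 Hoxa, 7 of 9 Hoxb, 6 of 7 Hoxc and 5 of 8 Hoxd genes. Probe sets differ in how strongly they bind their target, so the signals of different genes were compared with background and not with each other.

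**Figure D1:**
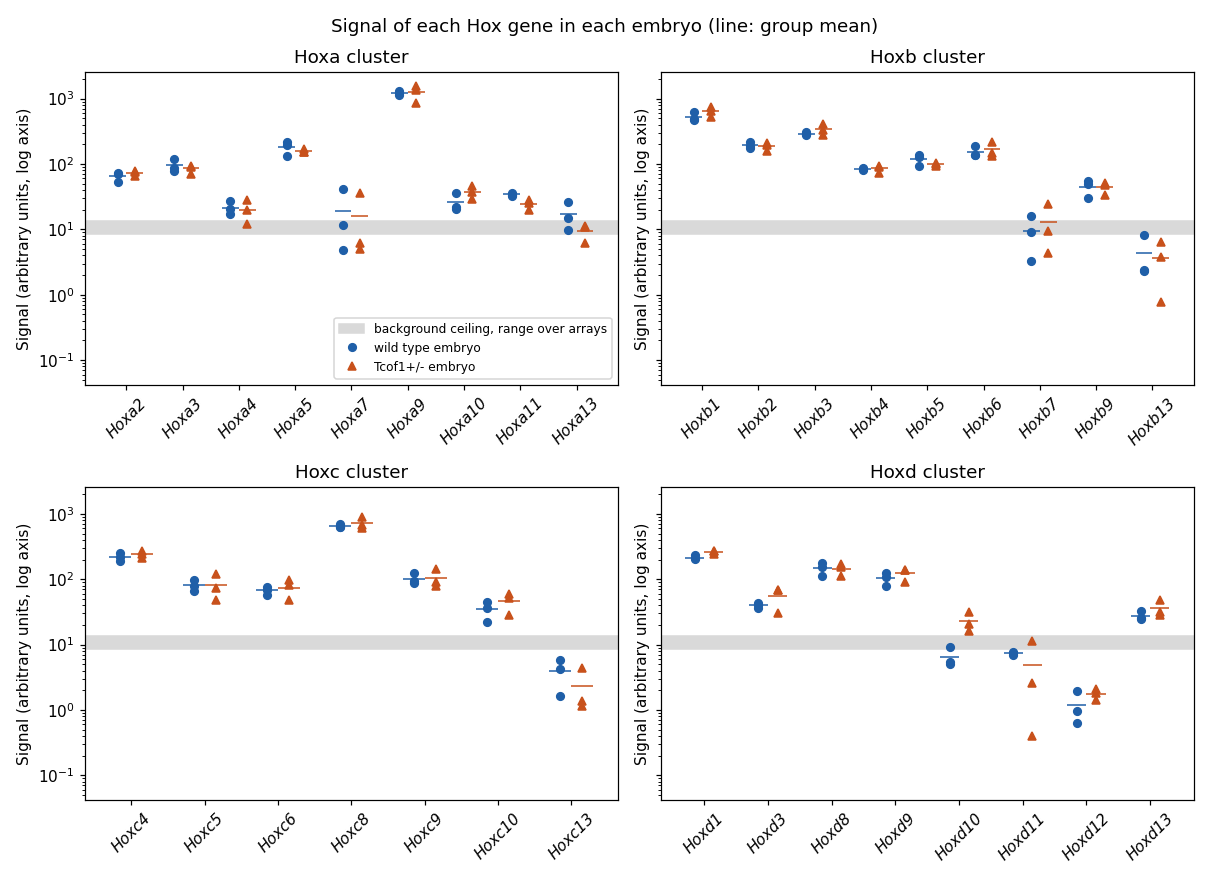
Signal of each of the 33 Hox genes in each embryo, on a log axis in arbitrary units, by cluster and in order of paralogue number. Circles are wild-type embryos, triangles Tcof1+/- embryos, short lines group means, and the grey band is the range of the background ceiling over the arrays, 8.55 to 13.5; Hoxb13, Hoxc13 and Hoxd12 lie under it in all 6 embryos, and heights are not comparable between genes.

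Among the genes of paralogue number 1, Hoxb1 marks, within the hindbrain and its crest, a single segment. Measured in whole embryos, Hoxb1 gave 479, 470.4 and 627 in wild types 1, 2 and 3 and 648, 747 and 524 in heterozygotes 1, 2 and 3. The genotypes overlapped, since heterozygote 3 lay below wild type 3. Hoxd1, its paralogue in the Hoxd cluster, gave 209, 201 and 232 in wild types and 267, 269 and 240.0 in heterozygotes. Here all 3 heterozygotes lay above all 3 wild types, with a small gap between wild type 3 and heterozygote 3.

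Hoxa2, which patterns the second pharyngeal arch, gave 72.4, 70.5 and 53.6 in wild types and 65.9, 78.1 and 76.5 in heterozygotes, and wild type 3 was the lowest of the 6. Hoxb2, which acts in the hindbrain, ranged from 177 to 214 in wild types and from 158 to 208 in heterozygotes. For paralogue number 3, Hoxb3 gave 285, 279.8 and 305 in wild types and 279, 406 and 329 in heterozygotes. The wild types were close together and heterozygote 2 stood above them. Hoxd3 gave 43.7, 40.4 and 36.0 in wild types and 30.4, 68.7 and 67.8 in heterozygotes, so the heterozygotes held both the lowest and the highest embryos. Hoxa3, which is needed for the thymus and parathyroids, ranged from 78.8 to 121 and from 71.0 to 94.1.

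For paralogue number 4, Hoxc4 gave 193, 219 and 253 in wild types and 208, 267 and 242 in heterozygotes, and the genotypes overlapped in part. Hoxb4 ranged from 80.5 to 85.9 in wild types and from 73.8 to 92.3 in heterozygotes. Hoxa4 ranged from 17.1 to 26.7 in wild types and from 12.1 to 28.2 in heterozygotes.

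Among the central genes, which act in the neck and trunk, Hoxb5 gave 126, 137 and 93.6 in wild types and 93.0, 99.9 and 102 in heterozygotes. Wild types 1 and 2 lay above all the others and wild type 3 among the heterozygotes. Hoxa5, which acts in the neck and upper trunk skeleton and the lung, gave 195, 219 and 133 in wild types and 155, 155 and 171 in heterozygotes. Wild types 1 and 2 were again the highest embryos, but wild type 3 was the lowest. Hoxc5 gave 79.4, 97.4 and 65.6 in wild types and 48.5, 121 and 72.8 in heterozygotes, and so had both extremes in heterozygotes.

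Hoxb6 gave 136, 137 and 189 in wild types and 219, 133 and 149 in heterozygotes, and wild type 3 and heterozygote 1 were the highest embryos. Hoxc6 ranged from 58.3 to 75.3 in wild types and from 47.7 to 95.8 in heterozygotes. Hoxc8, which patterns thoracic vertebrae, gave 702, 629 and 629.6 in wild types and 615, 879.8 and 677 in heterozygotes. Heterozygote 2 was the highest embryo and heterozygote 1 the lowest. Hoxd8 gave 153, 180.0 and 113 in wild types and 111, 155 and 168 in heterozygotes. Wild type 3 and heterozygote 1 were its lowest embryos, the reverse of their place for Hoxb6. Hoxa7 and Hoxb7, the genes of paralogue number 7, exceeded the ceiling in 1 wild type and 1 heterozygote each. For Hoxa7 these were wild type 3 (41.1) and heterozygote 1 (36.2), against 4.75 to 11.8 in the other embryos. For Hoxb7 they were the same embryos, at 15.9 and 24.6, against 3.24 to 9.57.

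Among the posterior genes, which pattern the lower trunk, limbs and tail, the signals of paralogue number 9 exceeded background throughout. Hoxa9 gave 1215, 1292 and 1122 in wild types and 853, 1554 and 1333 in heterozygotes, and Hoxd9 gave 79.0, 109 and 123 in wild types and 89.5, 138 and 141 in heterozygotes. Hoxb9 ranged from 30.3 to 55.3 in wild types and from 33.7 to 51.4 in heterozygotes, and Hoxc9 from 87.4 to 124 and from 79.7 to 142. In none of these 4 genes did the genotypes separate.

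For paralogue number 10, whose members pattern the lumbar region, Hoxa10 gave 20.2, 36.5 and 21.7 in wild types and 29.5, 37.6 and 46.6 in heterozygotes. Hoxc10 gave 45.2, 36.2 and 22.5 in wild types and 28.6, 50.8 and 59.4 in heterozygotes. In both, heterozygote 3 was the highest embryo and the genotypes overlapped. Hoxd10 gave 9.03, 5.38 and 5.13 in wild types, below the ceiling in all 3, and 20.9, 16.1 and 31.0 in heterozygotes, above it in all 3.

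Hoxa11, which acts in the limb, kidney and uterus, gave 32.5, 36.5 and 34.0 in wild types and 27.7, 19.8 and 25.4 in heterozygotes, and all 3 heterozygotes lay below all 3 wild types. Hoxd13, a gene of digits and the hindgut, gave 33.1, 24.4 and 25.8 in wild types and 32.0, 28.2 and 48.9 in heterozygotes on its brighter probe set, but 0.542 to 4.90 on the other, which is below the ceiling on all arrays. The remaining posterior genes were at or near background. Hoxb13, Hoxc13 and Hoxd12 did not exceed the ceiling on any array, Hoxd11 did so in heterozygote 3 alone (11.4), and Hoxa13 did so in wild types 2 and 3 (15 and 26.5) and in heterozygote 2 (11.2).

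The study compared heterozygotes with wild types, and here the question was whether any Hox gene differed. No Hox gene passed the test. Differences were fitted with limma on log2(signal + 1.87) for the 27022 probe sets left after leaving out the 40% with the lowest mean log2 value, and p-values were adjusted over all of them. Of 34 tested Hox probe sets, 0 passed at an adjusted p under 0.05, where 0.0814% of all tested probe sets passed, and the smallest adjusted p among them was 0.754. At an unadjusted p under 0.05 there were 2 of 34 (5.88%), against 6.22% of all tested probe sets. These were Hoxd1, higher in heterozygotes (3.01% of all tested probe sets), and the dimmer probe set of Hoxa9, lower (3.21%). The filter on the mean of linear signals, used at first, kept 36 Hox probe sets. Of these, 3 had an unadjusted limma p under 0.05, among them Hoxd10, against 6.19% of all probe sets tested there. The genotypes did not overlap in 3 of 34 (8.82%), against 12.2% of all tested probe sets. Hoxd1 was higher in heterozygotes without overlap (6% of all tested probe sets), and Hoxa11 and the dimmer Hoxa9 probe set were lower (6.18%).

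Over the 25 tested Hox genes, 1 probe set each, 16 differences were positive and 9 negative, with a median log2 difference of 0.09. Over all 12857 tested genes 6083 were positive and 6774 negative, with a median of -0.01 and quartiles at -0.14 and 0.11. The Hox median was 0.23 without heterozygote 1 and 0.02 without wild type 1. The median over the 10 anterior genes was 0.14 (7 positive, 3 negative), over the 7 tested central genes -0.03 (3 and 4) and over the 8 tested posterior genes 0.12 (6 and 2). By cluster it was -0.14 for Hoxa (3 and 4), 0.03 for Hoxb (4 and 3), 0.10 for Hoxc (5 and 1) and 0.27 for Hoxd (4 and 1). Single embryos moved all of these medians. With 1 array left out, the anterior median lay between 0.044 (without heterozygote 2) and 0.22 (without heterozygote 1). The central median lay between -0.22 (without wild type 3) and 0.14 (without heterozygote 1), so its sign depended on the embryos. The posterior median lay between 0.024 (without heterozygote 3) and 0.33 (without heterozygote 1). For Hoxa the range was -0.17 (without heterozygote 3) to 0.15 (without heterozygote 1), and for Hoxb -0.056 (without heterozygote 1) to 0.17 (without wild type 3), both with either sign. For Hoxc it was 0.0047 (without heterozygote 2) to 0.24 (without heterozygote 1), and for Hoxd 0.13 (without heterozygote 3) to 0.41 (without heterozygote 1).

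The tested gene with the smallest p was Hoxd1, at 214 ± 16.0 in wild types and 258 ± 16.0 in heterozygotes (SD, n = 3 each), a log2 difference of 0.27 (SE 0.11, 95% confidence interval 0.02 to 0.52, limma adjusted p = 0.782). Arrays of replicates 1 and 2 were scanned on 1 day and those of replicate 3 on another. The Hoxd1 difference was 0.38 within the earlier day and 0.05 within the later. Hoxa11 was at 34.3 ± 1.99 and 24.3 ± 4.08 (SD, n = 3 each), a log2 difference of -0.48 (interval -1.04 to 0.08, limma adjusted p = 0.812), with -0.52 and -0.39 within the earlier and later day. Hoxb1 was at 526 ± 88.2 and 639.6 ± 112 (SD, n = 3 each), a difference of 0.28 (interval -0.05 to 0.61, limma adjusted p = 0.818). Its difference changed sign between scan days, from 0.55 to -0.26.

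In Hoxc10, 34.6 ± 11.4 in wild types and 46.2 ± 15.9 in heterozygotes (SD, n = 3 each), the difference of 0.39 was -0.08 within the earlier day and 1.33 within the later. Among the other genes with the smallest p of their paralogue number, the log2 differences were 0.17 for Hoxa2, 0.20 for Hoxb3, 0.11 for Hoxc4, -0.25 for Hoxb5, 0.10 for Hoxb6, 0.13 for Hoxc8, 0.24 for Hoxd9, 0.53 for Hoxa10 and 0.34 for Hoxd13, with limma adjusted p from 0.824 to 0.943. Some of these values rested on 1 embryo. With 1 array left out, the lowest sizes were 0.036 for Hoxa2 (without wild type 3), 0.063 for Hoxb3 (without heterozygote 2), 0.014 for Hoxc4 (without wild type 1) and -0.14 for Hoxb5 (without wild type 2). They were 0.058 for Hoxd9 (without wild type 1), 0.12 for Hoxd13 (without heterozygote 3), 0.37 for Hoxa10 (without heterozygote 3), 0.12 for Hoxc10 (without wild type 3) and 0.16 for Hoxb1 (without heterozygote 2). Hoxd1 lay between 0.23 and 0.33 and Hoxa11 between -0.57 and -0.35. Among the 25 tested genes, the 3 with the widest spread between embryos of 1 genotype were Hoxc10, Hoxc5 and Hoxd3, with a pooled SD of 0.51, 0.50 and 0.47 on the log2 scale. Over the tested Hox genes the median of this SD was 0.32, against 0.18 over the 10529 tested genes in the same range of mean signal, 20.8 to 1228. Only the ends of this range were shared, and the genes were not matched for signal within it. Whether Hox genes vary more than genes of equal signal was not tested.

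On the probe set that stood for the gene, the 95% interval of 21 of the 25 tested genes lay within a 2-fold change in either direction. For 12 of them it lay within a 1.5-fold change. The intervals are not adjusted for the number of probe sets tested. The 4 genes whose interval reached past 2-fold were Hoxd3, Hoxa10, Hoxc10 and Hoxa11. The widest intervals among these 25 were those of Hoxa4 (-0.96 to 0.68) and Hoxc10 (-0.35 to 1.13). Over all 34 tested Hox probe sets, 28 had an interval within 2-fold. Dimmer probe sets of Hoxc6 (-2.88 to 1.24) and Hoxa3 (-1.07 to 0.59) reached past it.

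**Figure D2:**
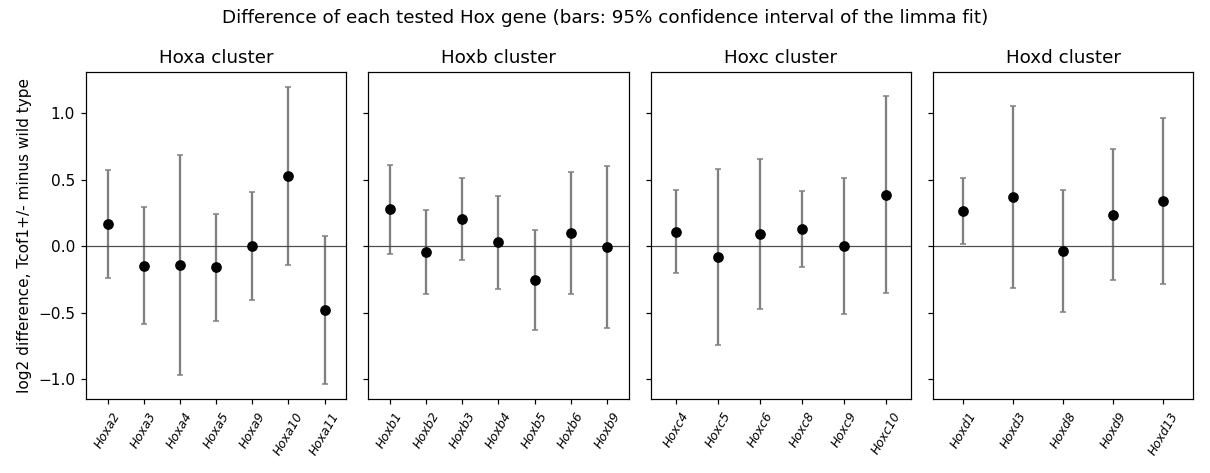
Difference between 3 Tcof1+/- and 3 wild-type embryos for each of the 25 tested Hox genes, in log2 units, by cluster and in order of paralogue number. Points are differences and bars 95% confidence intervals; the interval of Hoxd1 (0.02 to 0.52) is the single one that does not reach 0, before any adjustment for the number of probe sets tested.

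Hoxd10 was left out by the filter on the mean log2 value and so was not among the tested probe sets. Under the filter on the mean of linear signals, used at first, it was tested. Its limma p was then 0.00944 and its limma adjusted p 0.684, so Hoxd10 did not pass there either. Its signal was 6.51 ± 2.18 in wild types and 22.7 ± 7.60 in heterozygotes (SD, n = 3 each). Since it did not exceed the background ceiling in any wild type, its level there is known only as a bound. With each wild type set to the ceiling of its array, heterozygotes were at least 1.65-fold higher. With no filter on low values its log2 difference was 1.54 (interval 0.52 to 2.55), with a limma adjusted p of 0.738, so it did not pass. It was 1.19 within the earlier scan day and 2.23 within the later. Its unadjusted limma p was under 0.05, as for 4 of 48 Hox probe sets and 5.70% of all probe sets with no filter. For the other 7 genes left out by the filter, most signals lay under the ceiling and differences between them carry no measure of expression.

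The bases just before the start of transcription are shown for Hoxd1, Hoxd10 and Hoxa11, the genes whose representative probe set separated the genotypes, and for Hoxb1, the gene of the Hoxb cluster with the smallest p. They are from RefSeq, build GRCm38.p6, in the direction of transcription, and each covers 250 bases that end at the base before the start. Of the 33 measured genes 19 had a promoter in the table used. Capitals mark matches, on either strand, to 4 motifs: TGATNNAT, the shared site of Hox and Pbx proteins; TTTATG, a site of Cdx proteins; AGGTCA, the half-site of retinoic acid receptors; and TATAAA, the TATA box.
Hoxd1, chr2:74762730-74762979, plus strand: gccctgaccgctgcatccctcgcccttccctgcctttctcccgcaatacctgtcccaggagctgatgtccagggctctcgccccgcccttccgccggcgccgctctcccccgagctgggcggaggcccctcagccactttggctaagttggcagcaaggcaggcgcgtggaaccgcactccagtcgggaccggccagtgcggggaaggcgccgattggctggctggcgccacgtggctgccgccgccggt
Hoxd10, chr2:74691641-74691890, plus strand: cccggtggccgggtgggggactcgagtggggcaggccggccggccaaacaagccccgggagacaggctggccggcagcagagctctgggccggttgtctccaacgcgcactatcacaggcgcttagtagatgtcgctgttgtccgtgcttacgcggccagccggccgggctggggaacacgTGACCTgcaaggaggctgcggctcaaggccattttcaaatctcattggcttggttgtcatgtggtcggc
Hoxa11, chr6:52245811-52246060, minus strand: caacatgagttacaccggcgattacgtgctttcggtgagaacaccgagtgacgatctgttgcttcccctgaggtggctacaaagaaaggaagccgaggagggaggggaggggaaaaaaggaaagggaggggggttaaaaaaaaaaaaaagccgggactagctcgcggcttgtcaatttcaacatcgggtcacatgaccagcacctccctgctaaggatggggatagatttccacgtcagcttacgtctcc
Hoxb1, chr11:96365508-96365757, plus strand: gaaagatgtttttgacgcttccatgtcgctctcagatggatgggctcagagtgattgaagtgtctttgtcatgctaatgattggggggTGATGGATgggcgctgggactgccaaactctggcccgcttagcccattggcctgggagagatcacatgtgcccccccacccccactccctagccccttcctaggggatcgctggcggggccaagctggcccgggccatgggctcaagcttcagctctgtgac

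Hoxb1 held 1 match to the Hox and Pbx site. Hoxd10 held 1 match to the retinoic acid half-site, in the reverse orientation, and neither Hoxd1 nor Hoxa11 held any of the 4. Over all 24 Hox promoters in the table, which belong to 22 genes, the Hox and Pbx site was found in 16.7%, the Cdx site in 20.8%, the retinoic acid half-site in 25% and the TATA box in 16.7%. Over all 32851 promoters of the same length the shares were 7.68%, 10.8%, 14.0% and 12.4%. The median number of CG dinucleotides was 12.5 in Hox promoters and 6 over all promoters. The windows of Hoxd1, Hoxd10, Hoxa11 and Hoxb1 held 24, 20, 13 and 7. The Cdx matches were in Hoxa7, Hoxb8, Hoxd3, Hoxd4 and Hoxd11. Matches to different motifs may share bases and were counted separately. A match describes the letters of the window and no match says nothing about binding elsewhere.

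Several Hox genes had more than 1 tested probe set. Of 7 genes with at least 2 tested probe sets, 6 had differences of both signs and only Hoxd8 had 1 sign (-0.03 and -0.13). Apart from the dimmer Hoxa9 probe set, none of these differences had an unadjusted limma p under 0.05. The share of genes with both signs over the whole array was not counted, so the count says nothing particular to Hox genes. For Hoxa9 the brighter probe set differed by 0.00 (SE 0.18), whereas its dimmer one gave 87.0, 87.8 and 65.8 in wild types and 48.1, 62.0 and 55.4 in heterozygotes, without overlap. On that probe set the log2 difference was -0.52 (SE 0.19, limma adjusted p = 0.754). Hoxc6 gave 0.09, -0.24 and -0.82 on its 3 probe sets, the last of which ranged from 3.21 to 67.6 among wild types alone. Hoxa3 ranged from -0.24 to 0.18 over 3 tested probe sets, Hoxa5 gave -0.16 and 0.10, Hoxb3 0.20 and -0.13, and Hoxb4 0.03 and -0.21. The probe sets that stood for Hoxa3, Hoxa5 and Hoxc6 are of types that Affymetrix marks as able to bind other transcripts.

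Much of the variation of Hox genes lay between embryos of the same genotype. Relative to its mean over all 6 embryos, the median tested Hox gene deviated by -0.01, 0.03 and -0.11 in wild types 1, 2 and 3 and by -0.14, 0.19 and 0.08 in heterozygotes 1, 2 and 3, on the log2 scale. Of 25 tested genes, 18 were below their mean in wild type 3 and 17 in heterozygote 1, against 13 and 12 in wild types 1 and 2 and 8 and 9 in heterozygotes 2 and 3. The 12857 tested genes had medians between -0.01 and 0.02 in the 6 embryos.

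**Figure D3:**
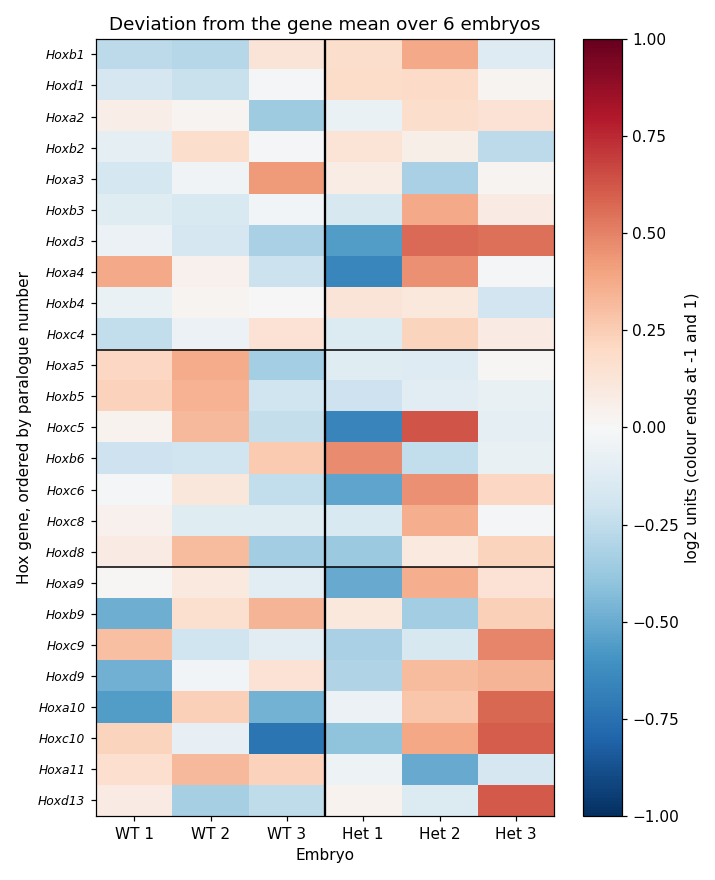
Deviation of each of the 25 tested Hox genes (rows, by paralogue number) from its own mean over the 6 embryos (columns), in log2 units with the colour scale ending at -1 and 1. Red is above and blue below the gene's mean, horizontal lines separate numbers 1 to 4, 5 to 8 and 9 to 13, and most central genes are blue in both wild type 3 and heterozygote 1, with Hoxb6 red in both.

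The classes differed in which embryos stood out. The median of the anterior genes was lowest in wild type 1 (-0.11) and highest in heterozygote 2 (0.21), where 1 of 10 genes was below its mean. The median of the central genes was 0.04, 0.32 and -0.24 in wild types 1, 2 and 3 and -0.20, 0.10 and -0.01 in heterozygotes 1, 2 and 3, so that 1 embryo of each genotype was low, with 6 of 7 genes below the mean in each. The median of the posterior genes was 0.04, 0.04 and -0.11 in wild types and -0.18, 0.07 and 0.42 in heterozygotes. In heterozygote 3, the highest, 1 of 8 posterior genes was below its mean.

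Marker lists of other regions also moved between embryos. The 4 tested somite markers had medians of 0.32, -0.16 and -0.24 in wild types and -0.56, -0.07 and 0.24 in heterozygotes. The 4 heart markers had 0.03, 0.00 and -0.21 in wild types and -0.25, 0.31 and 0.04 in heterozygotes. Both medians were thus lowest in wild type 3 and heterozygote 1, the embryos with the lowest medians of tested central and of tested posterior Hox genes. The medians of listed partners of Hox proteins and of genes next to the clusters were lowest there too. Those of anterior Hox genes and of listed regulators of the clusters were not, and the untested central genes Hoxa7 and Hoxb7 were highest in these 2 embryos. The 6 tested markers of presomitic mesoderm and tail bud had medians of -0.13, -0.04 and 0.27 in wild types and 0.16, -0.09 and -0.01 in heterozygotes. These were highest in wild type 3 and heterozygote 1. Single members departed from the medians. The somite marker Tcf15, at 460 in wild type 3, was above all but wild type 1. The heart marker Myl7, at 2340 in heterozygote 1, was above all but heterozygote 2. The tail bud marker Fgf8, at 31.7 in wild type 3 and 32.3 in heterozygote 1, was lower only in wild type 2. Wild type 3 was scanned on the second day and heterozygote 1 on the first. The markers of yolk sac endoderm had medians of -1.47, 0.84 and 0.91 in wild types and 1.71, -2.96 and 0.88 in heterozygotes. Blood markers had 0.71, 1.35 and 0.20 in wild types and -3.90, -0.02 and 1.02 in heterozygotes. The part of developmental stage or of these tissues in the Hox differences between embryos was not tested.

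**Figure D4:**
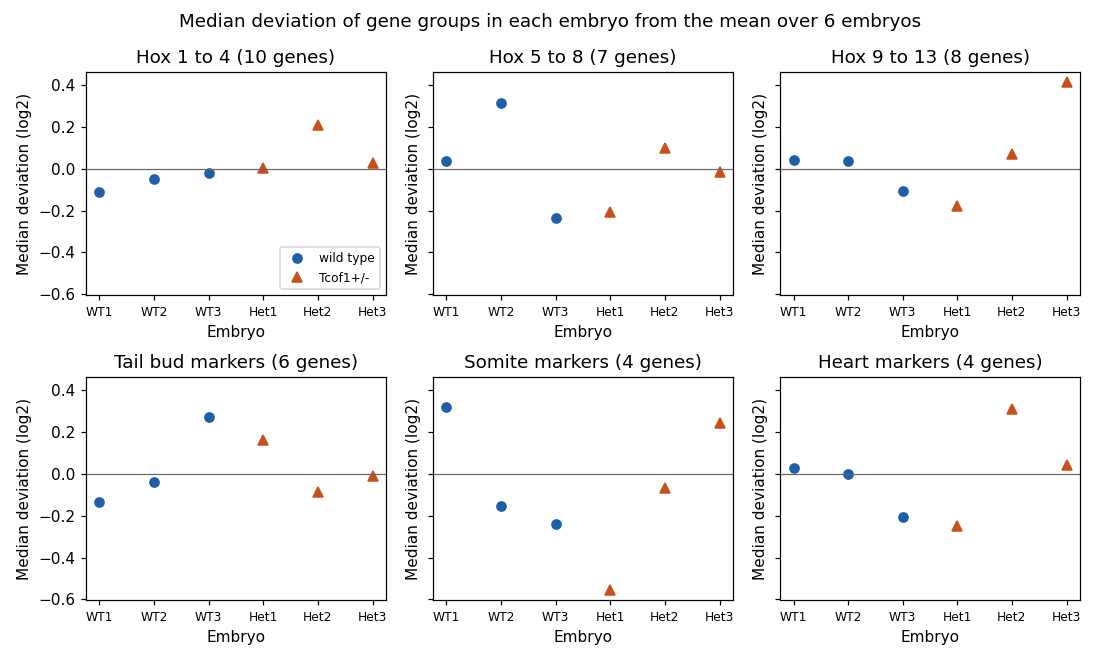
Median deviation, in log2 units from the mean over 6 embryos, of the tested anterior, central and posterior Hox genes (upper panels) and of tail bud, somite and heart markers (lower panels) in each embryo. Circles are wild types and triangles Tcof1+/-. The medians of central and posterior Hox genes and of somite and heart markers are lowest in wild type 3 and heterozygote 1. The median of tail bud markers is highest in these embryos, and single members of the lists depart from the medians.

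The partners of Hox proteins were measured with 8 of 9 listed genes, of which 7 were tested. None passed, 2 differences were positive and 5 negative, and the median was -0.14. Pbx2, a homeodomain partner of Hox proteins, had the smallest p, at 423 ± 64.2 in wild types and 346 ± 14.3 in heterozygotes (SD, n = 3 each; log2 difference -0.28, SE 0.12, limma adjusted p = 0.787). Its signals were 412, 492 and 366 in wild types and 334, 341 and 362 in heterozygotes, and wild type 3 lay just above heterozygote 3, without overlap. Pbx4 did not exceed background on any array.

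Of 17 listed regulators that act on the Hox clusters, 14 were matched and 12 tested, with 7 positive and 5 negative differences, a median of 0.05 and none that passed. Cdx1, a caudal homeobox factor, had the smallest p, and its signals were 76.4, 64.9 and 123 in wild types and 91.7, 40.1 and 18.9 in heterozygotes (log2 difference -1.0, SE 0.47, limma adjusted p = 0.799). Heterozygotes 2 and 3 were its lowest embryos and wild type 3 its highest. Cdx2 gave 384, 303 and 429 in wild types and 474, 405 and 389 in heterozygotes, and differed by 0.19. Cdx4 differed by -0.02, the retinoic acid synthesis gene Aldh1a2 by -0.00 and the retinoic acid degrading gene Cyp26a1 by -0.14. Of the 6 ParaHox genes, the sister family of the Hox clusters, the 3 tested were the Cdx genes, which are also among the regulators, and Gsx1 did not exceed background on any array.

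The genes that flank the clusters were all matched, and 10 of 11 were tested, with 5 positive and 5 negative differences, a median of 0.02 and none that passed. Mtx2, a mitochondrial membrane protein gene that lies beyond the Hoxd1 end of the Hoxd cluster, gave 748, 703 and 738 in wild types and 779, 947 and 822 in heterozygotes, without overlap (log2 difference 0.21, SE 0.09, limma adjusted p = 0.787). Evx2, the homeobox gene beyond the Hoxd13 end, gave 15.2, 27.8 and 20.4 in wild types and 30.3, 23.8 and 42.3 in heterozygotes, and differed by 0.56. Lnpk, which lies beyond Evx2, differed by -0.13. Within the Hoxd cluster, the differences in the order of the genes from Hoxd1 were 0.27, 0.37 (Hoxd3), -0.03 (Hoxd8), 0.24 (Hoxd9) and 0.34 (Hoxd13). Evx1, the corresponding neighbour of Hoxa13, gave a difference of -0.30.

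Markers of the head had a median difference of -0.53 over the 3 tested of 5 listed (Otx2, Six3 and Lhx2), all negative, and none passed. Their signals summed to 422 to 570.3 in wild types and 294 to 379 in heterozygotes. The 2 tested hindbrain markers, Egr2 and Fgf3, differed by 0.04 and -0.37. Of the 6 tested markers of presomitic mesoderm and tail bud, 4 differences were positive and 2 negative (Hes7 and Msgn1), with a median of 0.11 and none that passed. The part of the head and hindbrain shares of the RNA in the Hox signals was not tested.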

How the data were processed

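Per the labels' protocols, total RNA of single embryos (100 ng) was labelled with biotin by a 2-cycle protocol. The deposited values are linear intensities, 1 for each probe set on each array. The submitters' processing notes name GCOS, with no version or signal algorithm. The authors' scaling was kept. Other values (chip type, scan day, fluidics module) were read from the deposited instrument records per array, and each fluidics module served a single genotype, so these cannot be told apart. Replicate numbers come from the sample titles and name separate embryos.

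Of 45101 probe sets, 64 were controls and took no part. The scale was log2(signal + 1.87), a pseudocount set at the 10th percentile, and the 40% with the lowest mean log2 value were left out (below a signal of about 13.2). The mean of linear signals was used at first, and the mean log2 value was adopted after Hox results under both had been seen, which leaves Hoxd10 and Hoxa7 untested. Genotype was the sole term in limma 3.58.1 under R 4.3.3 (lmFit, eBayes with an intensity trend). Tests were two-sided and Benjamini-Hochberg adjusted p was held to 0.05. The fit was tested on simulated data. Fold changes are on this log2 scale and understate those of dim genes. Gene symbols are those of the platform annotation, brought up to date with the RefSeq table. Values per embryo were given for genes with p under 0.05, the smallest p per cluster and paralogue number, and the 3 widest spreads; the other genes given with values, among them Hoxd10, Hoxa9, Cdx2 and Evx2, were chosen after their values were seen. The members, classes and lists were chosen with earlier results of these data known. Figures were drawn with matplotlib 3.10.9.

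Alternatives were a pseudocount of 1 or of 7.03 (the 25th percentile), quantile normalization, arrays set to equal medians, filters at none and 60%, no intensity trend, array weights, the replicate number or scan day as a block, each array left out, and the mean of all tested probe sets of a gene. The filter on the mean of linear signals, used at first, was kept as an alternative after the data had been seen.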

Additional observations from a re-analysis of the deposited data

How the results depend on the processing

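No Hox probe set passed under any of the 17 alternatives run, with the smallest limma adjusted p between 0.569 (without wild type 3) and 0.999 (equal array medians); 0 to 5 had an unadjusted p under 0.05. The count over all probe sets, 22, became 0 without the intensity trend (1571 at an unadjusted p under 0.05), 10 with a block for replicate number, 14 with one for scan day, and 8 to 20 with 1 array left out: 8 without wild type 1, 11 without wild type 2 or 3 and 12 without heterozygote 2. The replicate numbers are not said to pair the embryos. Same-numbered embryos had correlations of -0.08, -0.11 and -0.02 in their deviations from the genotype means. With 3 embryos per genotype these values cannot show whether the numbers pair embryos. The median over Hox genes, 0.09, lay between 0.020 (without wild type 1) and 0.23 (without heterozygote 1) with 1 array left out, and was 0.00 with the mean of all tested probe sets of a gene. Of 251 values for 15 named genes, 247 kept their direction and none passed. The 4 that changed sign were Hoxc5 without wild type 2 (0.06) or heterozygote 1 (0.23), Hoxb6 without heterozygote 1 (-0.11) and Hoxc8 without heterozygote 2 (-0.017); the cause was not tested. With 1 array left out, Hoxb6 ranged from -0.11 to 0.26, Hoxc8 from -0.017 to 0.24 and Hoxc5 from -0.41 to 0.23. Posterior genes near the background ceiling, 8.55 to 13.5, are limited by signal.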

Other observations

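Probe sets outside the rule, chosen after their values were seen, measured RNAs antisense to Hox genes and sequences shared by neighbours. Hoxb5os, an RNA named for its place opposite Hoxb5, gave 3963, 4069 and 3417 in wild types 1, 2 and 3 and 2849, 3313 and 3627 in heterozygotes 1, 2 and 3 (log2 difference -0.23, SE 0.10, limma adjusted p = 0.784). The genotypes overlapped at wild type 3 and heterozygote 3. Hoxb5 itself differed by -0.25. The brighter probe set of Hoxd3os1 gave 69.7, 110.4 and 142 in wild types and 90.3, 155 and 123 in heterozygotes, and differed by 0.21. Both probe sets of Hoxa11os lay below the background ceiling on all 6 arrays, whereas Hoxa11 exceeded it on all 6. A probe set shared by Hoxb8 and Hoxb7 gave 78.0, 176 and 193 in wild types and 182, 145 and 90.7 in heterozygotes, with wild type 1 lowest, and differed by -0.05. The probe sets shared by Hoxd4 and Hoxd3 differed by 0.05 and -0.54 (limma adjusted p = 0.976 and 0.831).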
